A study of Macaca mulatta with 30 samples.

Results

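SMR3A and SMR3B are a pair of neighbouring genes that encode small, secreted, proline-rich proteins of saliva. They were taken by name from a table of transcript abundances in rhesus macaque (Macaca mulatta) tissues, where they are 2 of 21292 listed genes. They were chosen by the size of their rise over pancreas in an earlier analysis of the same table, SMR3A in submandibular gland and SMR3B in parotid, and SMR3B also by its rise in parotid over sublingual gland. Differences between tissues in either gene, and in the ratio of the pair, are therefore given as a description, with no test. Both passed the filter on low values, SMR3A with at least 1 TPM in 29 of 30 libraries and SMR3B in 30 of 30.

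The study sampled 5 tissues from each of 6 animals by RNA sequencing, namely parotid, submandibular and sublingual gland, pancreas and liver, and was set up around the expression of amylase genes. All samples were flash-frozen biopsies whose RNA was isolated from tissue sections, animals 1 to 4 were labelled female and animals 5 and 6 male, and ages are not given in the sources used here. The gland samples were labelled as left glands, except the parotid of animal 3, whose library name carries the letter R. Each tissue thus had 6 libraries from separate animals, in which a gene's level is given in TPM, a share of all transcripts corrected for transcript length. TPM can be compared between genes, but sequencing depth is unknown, so no counting error or detection limit can be attached to a value.

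Saliva is made by glands whose acini are of a serous type, which releases a thin protein-rich fluid, or of a mucous type, which releases heavily glycosylated mucins. In primates the parotid is mainly serous, the sublingual mainly mucous and the submandibular mixed. SMR3A and SMR3B belong to a cluster of genes for secreted phosphoproteins and proline- and glutamine-rich proteins, which also holds caseins of milk, proteins of tooth enamel, the salivary mucin MUC7 and OPRPN, the precursor of the peptide opiorphin. The cluster arose by gene duplication, and members differ widely in the secretory tissue that uses them.

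3 libraries stood apart from the rest of their tissue and are named here because they touch results on the pair. The submandibular library of animal 4 had a median of 78.9 TPM over 6 markers of serous acini, against 4757 to 7907 TPM in the other 5, and a median of 687 TPM over 6 adipocyte markers, against 4.99 TPM or less. The pancreas library of animal 4 had a median of 320 TPM over the 11 measured pancreas acinar markers, of 12 listed, against 12318 to 33622 TPM in the other 5, and an adipocyte median of 833 TPM. In the parotid library of animal 6 the median over the 8 measured skeletal muscle markers, of 9 listed, was 11338 TPM, against 978 TPM or less in the other 5. The liver libraries held their tissue's markers, with medians of 8637 to 13451 TPM over the 8 measured hepatocyte genes, of 9 listed. The 5 mucous gland markers did not set the sublingual libraries apart, with medians of 2.70 to 247 TPM there and 2.88 to 19.7 TPM in submandibular gland. Muscle markers were also at 1193 and 3204 TPM in the sublingual libraries of animals 1 and 5. In bulk tissue, fewer gland cells and less RNA per cell cannot be told apart.

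SMR3B was among the most abundant transcripts of parotid and submandibular gland. In parotid it stood at 32483, 191028, 196684, 74372, 21108 and 52570 TPM in animals 1 to 6, which is 2.11 to 19.7% of all transcripts. In submandibular gland it stood at 103269, 137035, 152354, 914, 119614 and 141448 TPM. It ranked first in the parotid of animals 2 and 3 and in the submandibular gland of animal 3, and no lower than place 7 in any parotid library. The submandibular library of animal 4, the one low in serous markers, was the exception, with SMR3B at place 188. Without that library the submandibular mean was 130744 ± 19364 TPM (SD, n = 5), and with it 109106 ± 55761 TPM (n = 6). The parotid mean was 94707 ± 78936 TPM (n = 6), and 103135 ± 85182 TPM (n = 5) without the muscle-rich library of animal 6. The spread between animals was thus wide in parotid, where the highest library was several times the lowest, and narrower in the 5 submandibular libraries rich in serous markers.

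SMR3B was far lower in the other 3 tissues. In sublingual gland it stood at 2387, 4194, 3674, 1287, 7819 and 2838 TPM in animals 1 to 6. In pancreas the values were 3371, 2502, 3109, 1417, 1333 and 2106 TPM, and in liver 3574, 2690, 4223, 4269, 2670 and 4011 TPM. The lowest parotid value lay above every sublingual, pancreas and liver value, while sublingual gland, pancreas and liver overlapped each other. By mean level the order was submandibular gland, parotid, sublingual gland (3700 ± 2258 TPM, SD, n = 6), liver (3573 ± 734 TPM) and pancreas (2306 ± 848 TPM), and each tissue overlapped the next except parotid and sublingual gland. The mean of the within-animal differences in log2(TPM + 1) was 4.42 ± 1.70 (SD, n = 6) between parotid and sublingual gland and 4.97 ± 1.20 between parotid and pancreas, with parotid higher in 6 of 6 animals in both. Between sublingual gland and liver it was -0.14 ± 1.12, with sublingual gland higher in 2 of 6 animals. The parotid contrasts served to choose the gene. Of all 13550 genes tested, 0.893% were called higher in parotid than in sublingual gland and 2.24% higher than in pancreas (limma, adjusted p-value below 0.05).

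SMR3A was highest in another gland, the sublingual, at 19.3, 414, 3992, 147, 8305 and 4734 TPM in animals 1 to 6. In submandibular gland it stood at 91.0, 103, 170, 33.2, 204 and 418 TPM, and in parotid at 39.3, 94.0, 92.7, 62.1, 61.1 and 127 TPM. The sublingual libraries of animals 3, 5 and 6 lay above every library of the other tissues, and SMR3A ranked 29, 16 and 15 in them. The sublingual library of animal 2 was close to the highest submandibular value, and those of animals 4 and 1 fell within or below the range of the other glands.

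Pancreas and liver held the lowest levels of SMR3A. Pancreas values were 1.56, 0.994, 14.4, 26.6, 44.5 and 16.3 TPM in animals 1 to 6, and liver values 2.62, 14.3, 14.4, 43.6, 52.8 and 26.8 TPM. By mean level the order was sublingual gland (2935 ± 3341 TPM, SD, n = 6), submandibular gland (170 ± 136 TPM), parotid (79.3 ± 31.2 TPM), liver (25.8 ± 19.2 TPM) and pancreas (17.4 ± 16.4 TPM). Every tissue overlapped the next in this order, so no step exceeded the spread between animals in full. Within animals, sublingual gland exceeded parotid and submandibular gland in 5 of 6 animals each and pancreas and liver in 6 of 6. The animal in which the sublingual value was below parotid and submandibular gland was animal 1. The mean within-animal difference was 6.12 ± 2.66 on the log2(TPM + 1) scale between sublingual gland and pancreas, 3.57 ± 2.04 between submandibular gland and pancreas and 2.78 ± 1.86 between parotid and pancreas. These 3 differences share their pancreas libraries, and the submandibular one served to choose the gene.

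**Figure D1:**
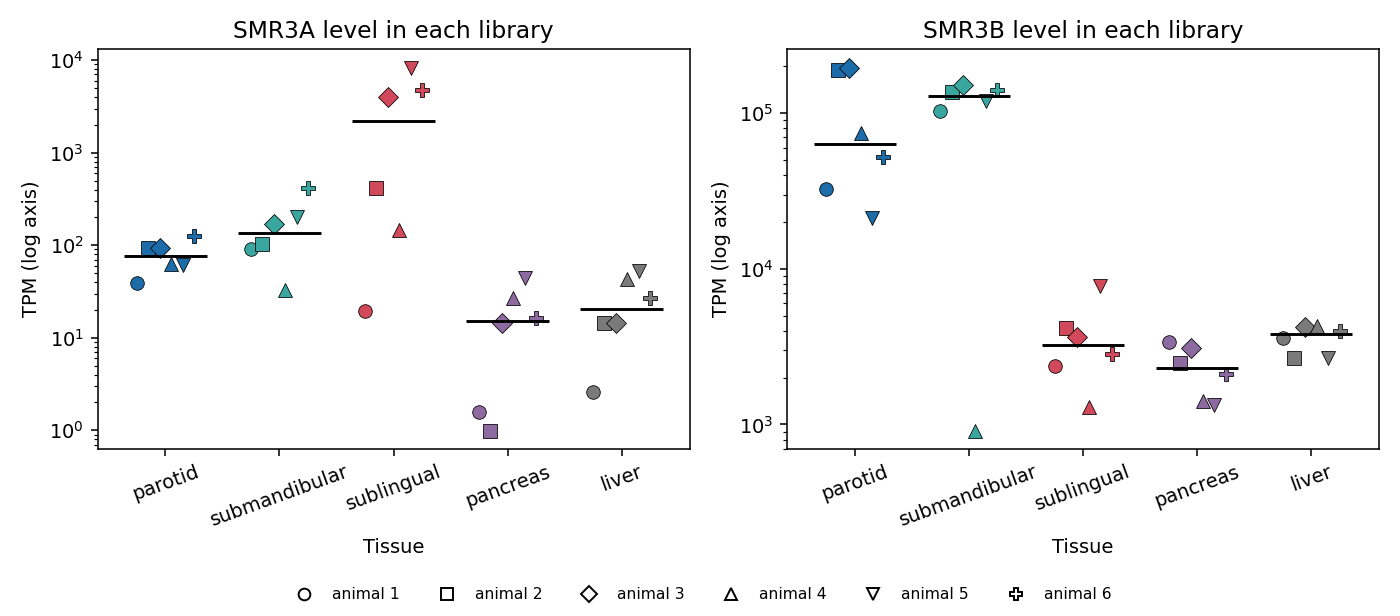
Level of SMR3A (left) and SMR3B (right) in TPM on a log axis in the 5 tissues, with 1 point for each of the 6 animals (symbols) and a line at the median. SMR3A reaches 8305 TPM in sublingual gland, whereas SMR3B reaches 196684 TPM in parotid and lies between 1287 and 7819 TPM in sublingual gland.

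The sublingual libraries lowest in SMR3A, those of animals 1 and 4, differed from the other 4 in some markers and not in others. In animals 1 and 4, ZG16B, a secreted lectin-like protein that is also among the genes most correlated with SMR3A, stood at 31360 and 2016 TPM, against 143860 to 332616 TPM in the other 4. MUC7 stood at 1401 and 184 TPM there, against 6310 to 27189 TPM. The median of 5 plasma cell markers was 7.34 and 12.7 TPM in these libraries, against 43.9 to 166 TPM in the other 4. KRT5 and KRT14, keratins of basal and myoepithelial cells, stood at 1851 and 1809 TPM in animal 1 and at 2071 and 1900 TPM in animal 4, against 18.9 to 98.8 and 58.7 to 177 TPM in the other 4. ACTA2, the smooth muscle actin of myoepithelial cells, went the other way, at 30.1 and 41.3 TPM against 74.0 to 183 TPM, and the median of the 5 myoepithelial markers overlapped. KRT7, a keratin of ducts, stood at 45.9 and 52.2 TPM against 4.51 to 14.1 TPM. CLDN10, another duct marker, went the other way, at 5.24 and 4.01 TPM against 6.34 to 31.8 TPM. The median of the 4 measured duct markers, of 5 listed, overlapped, at 14.1 and 7.13 TPM against 6.36 to 25.2 TPM. The mucous marker medians did not separate these libraries, at 2.70 and 18.1 TPM against 4.76 to 247 TPM, and animal 6, high in SMR3A, was at 4.76 TPM. The muscle marker median was high in animal 1 but also in animal 5, where SMR3A was highest of all. The part that tissue content played in the SMR3A values was not tested.

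Because TPM are shares of a fixed total, a few dominant transcripts push down all others. The genes outside the 100 most abundant took 10.7 to 17.6% of all TPM in the parotid libraries other than that of animal 6, and 34.9 to 66.0% in sublingual gland. With TPM rescaled so that those remaining genes sum to the same total in every library, SMR3A stood at 6609 ± 7133 in sublingual gland (SD, n = 6), 1146 ± 859 in submandibular gland, 478 ± 218 in parotid, 59.2 ± 67.8 in pancreas, and 49.4 ± 37.8 in liver. The order of the glands was the same on this scale, and pancreas and liver changed places. SMR3B stood at 798341 ± 426848 in submandibular gland, 652557 ± 657303 in parotid, 8231 ± 4990 in the sublingual, 8722 ± 4362 in pancreas and 6953 ± 1903 in liver, so that sublingual gland fell between pancreas and liver.

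The relation between the genes of the pair was read from their share in each library. SMR3A made up 0.0471 to 0.288% of the summed TPM of the pair in parotid and 0.0754 to 3.50% in submandibular gland, where the highest share was that of animal 4. In sublingual gland the share ran from 0.801 to 62.5%, with a median of 30.9%. SMR3A exceeded SMR3B in the sublingual libraries of animals 3, 5 and 6 and in no other library of the 30. In pancreas the share was 0.0397 to 3.23% and in liver 0.0733 to 1.94%. The mean log2 ratio of SMR3A to SMR3B was -2.07 ± 2.94 in sublingual gland (SD, n = 6), -8.77 ± 2.10 in submandibular gland and -9.83 ± 1.12 in parotid. It was -7.63 ± 2.30 in pancreas and -7.48 ± 1.47 in liver. How reads shared by the pair were divided between them is not given in the sources used here, so the lower value of the pair in each library is the less certain.

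**Figure D2:**
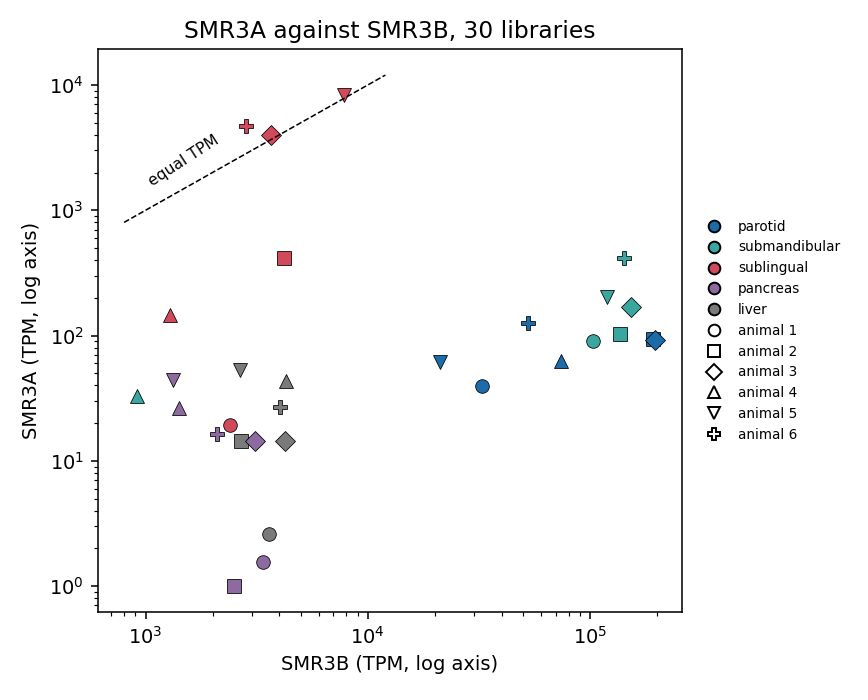
SMR3A against SMR3B in TPM, both on log axes, with 1 point for each of 30 libraries (colour for tissue, symbol for animal) and a dashed line at equal TPM. The sublingual libraries of animals 3, 5 and 6 lie on or just above the line, and those of parotid lie far to the right with SMR3A between 39.3 and 127 TPM.

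Parotid and submandibular gland were set side by side next. Their libraries also served the choice of the pair, SMR3A by its submandibular and SMR3B by its parotid level, so the differences are again descriptions. SMR3A was lower in parotid in 5 of 6 animals (limma log2 fold change -0.79, SE 0.79). SMR3B was higher in parotid in 3 of 6 animals (0.27, SE 0.75). The sign of the SMR3B difference rested on animal 4, whose submandibular library was low in serous markers, since the log2 fold change was -0.95 (SE 0.44) without that animal. The log2 ratio of SMR3A to SMR3B was lower in parotid in 4 of 6 animals, by a mean difference of -1.06 ± 2.28 (SD of the within-animal differences, n = 6), from -5.46 to 0.78. Of all 13550 genes tested, 0.347% were called different between these glands.

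Levels in pancreas and in liver overlapped for both genes, in values that again include the pancreas libraries used for the choice. SMR3A was lower in pancreas in 5 of 6 animals (log2 fold change -0.84, SE 0.79), and SMR3B in 6 of 6 animals (-0.69, SE 0.75). The within-animal difference in the log2 ratio was -0.15 ± 1.40 (SD, n = 6). None of the 7 tested neighbours described further on passed in limma in this contrast, where 30.4% of all genes did.

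The levels outside the glands of highest expression can be set beside those of other abundant genes of the same libraries. Relative to its submandibular mean, SMR3B was at 3.39% in the sublingual, 2.11% in the pancreas and 3.27% in the liver. SMR3A in pancreas and liver was at 0.593 and 0.878% of its sublingual mean. Genes of other organs were read in the same way. PRSS1, the gene of cationic trypsinogen, was at 0.471 to 0.878% of its pancreas mean in the 4 other tissues, and ALB, the gene of serum albumin, at 0.630 to 1.06% of its liver mean. Thus, by tissue means, SMR3A in pancreas and liver lay within the range of these traces. Within single animals it was at 0.240 to 18.1% of the sublingual value in pancreas and 0.360 to 29.7% in liver. The highest percentages were those of animals 1 and 4. Such shares were not worked out for PRSS1 and ALB. By means, SMR3B lay above the range of the traces in all 3 of its low tissues, as did SMR3A in parotid and submandibular gland, at 2.70 and 5.79% of its sublingual mean. The same held for the 5 genes most correlated with SMR3B, described further on. They were at 1.39 to 2.11% of their highest tissue mean in pancreas, 2.01 to 2.70% in liver and 1.79 to 13.4% in sublingual gland. A level above these traces was thus not particular to SMR3B. Whether the low levels in pancreas and liver came from those tissues or from other libraries was not tested.

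Sex was compared within each tissue as a further measure independent of the choice of genes. SMR3A was higher in both males than in all 4 females in sublingual gland (mean log2 level 12.61 against 8.05, exact two-sided permutation p = 0.200) and in submandibular gland (8.20 against 6.44, exact p = 0.133). The submandibular mean of the females includes the library of animal 4, which was low in serous markers. In the other 8 of 10 comparisons the sexes overlapped. How many of all genes separated the sexes in this way was not counted. After adjustment over the 10 tests the exact permutation p-values were 0.444 to 0.667. With 4 females and 2 males there are 15 splits, and the smallest p they allow is 0.0667, so no sex difference could have passed. The sublingual libraries of animals 1 and 4 were both from females. Their medians over the serous markers were 171 and 88.2 TPM, against 1042 to 2129 TPM in the other sublingual libraries. The part this played in the difference between the sexes was not tested.

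The genes whose levels most resembled each member's were found by the Pearson correlation of log2(TPM + 1) over the 30 libraries, among 1450 genes that passed the filter and reached a mean of 100 TPM in some tissue. The libraries share animals and tissues and the values share a fixed total, so these correlations are descriptions. For SMR3B they were BPIFA2 (r = 0.986), a lipid-binding protein of parotid saliva, CST5 (0.971), the protease inhibitor cystatin D, LOC114670789 (0.931), LOC722360 (0.930) and PRR27 (0.921), a proline-rich protein encoded in the same cluster. For SMR3A they were BPIFB1 (0.876), a secreted lipid-binding protein of mucous epithelia, LOC713151 (0.833), ZG16B (0.823), OLFM4 (0.822), a secreted olfactomedin glycoprotein, and LOC720839 (0.818). The members' correlation with each other was 0.253, which put SMR3A at place 60 for SMR3B and SMR3B at place 186 for SMR3A.

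Their likeness to a member is what chose these genes, so that the gland of their highest level follows from the choice. The submandibular mean of BPIFA2 was 89932 ± 48558 TPM (SD, n = 6), its parotid mean 39482 ± 22314 TPM and its sublingual mean 2231 ± 2003 TPM. BPIFB1 stood at 10897 ± 8772 TPM in sublingual gland, against a parotid mean of 166 ± 47.9 TPM and a submandibular mean of 157 ± 62.6 TPM. The submandibular level of SMR3A, at 5.79% of the sublingual mean, lay between those of BPIFB1 (1.44%) and ZG16B (11.5%).

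**Figure D3:**
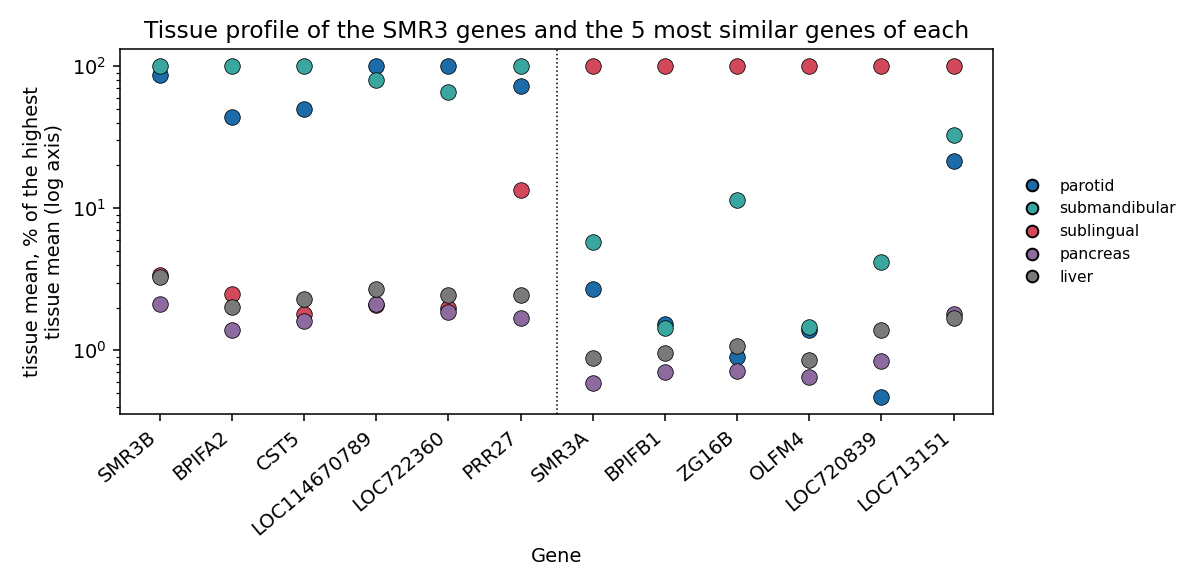
Mean level of SMR3B, SMR3A and the 5 genes most like each, as a percentage of the gene's highest tissue mean on a log axis, with 1 point per tissue (mean of 6 libraries). SMR3B and its companions (left of the dotted line) are highest in submandibular gland or parotid, and SMR3A and its companions (right) in sublingual gland, with pancreas and liver at 0.593 to 3.27% throughout.

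The rest of the gene cluster was examined next. In RefSeq's annotation of T2T-MMU8v2.0 the gene order places no protein-coding gene between SMR3B and SMR3A. Which build the TPM rest on is not given in the sources used here, so no coordinates are printed. On the SMR3B side the next 5 coding genes are OPRPN, MUC7 and the enamel genes AMTN, AMBN and ENAM. On the SMR3A side they are LOC144340912, which was not analysed here, CABS1, a protein first described in sperm, CSN3, the kappa-casein gene, FDCSP, a small secreted peptide, and ODAM, made by enamel-forming cells. The enamel genes and CABS1 never reached 1 TPM in any of the 30 libraries.

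Together with PRR27, CSN2 and other members of the same cluster, 15 neighbouring genes were listed, of which 11 had a value and 7 passed the filter. Against pancreas, 3 of the 7 tested were higher in parotid in limma, against 2.24% of all genes. These were PRR27 (log2 fold change 4.85, SE 0.73, adjusted p = 2.89e-05), CSN3 (3.22, SE 0.83, adjusted p = 0.00867) and OPRPN (1.82, SE 0.50, adjusted p = 0.0140). Without animal 2 the call of CSN3 was lost (adjusted p = 0.0619), and without animal 3 that of OPRPN (0.144). In submandibular gland 4 of 7 were higher, against 2.25%, and in sublingual gland 5 of 7, against 10.4%. The median log2 fold change over the 7 was 0.92 in parotid, 2.30 in submandibular and 3.38 in sublingual gland, and over all genes tested -0.48, -0.33 and 0.23. None of the 7 was lower than in pancreas in any gland, where 13.6, 7.46 and 3.51% of all genes were lower in parotid, submandibular and sublingual gland. Against liver, 2, 4 and 5 of the 7 were higher in these glands, where 4.61, 5.68 and 12.8% of all genes were, and none was lower, where 53.4, 45.1 and 18.7% were. ODAM passed the filter through 5 sublingual libraries and 1 submandibular library, so its difference was built into its selection. CSN2, the beta-casein gene, reached 1 TPM in 12 libraries, all from glands, so its differences from pancreas and liver were built in as well. Both are counted above as higher in sublingual gland, CSN2 also in submandibular gland, and both enter the medians.

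The direct comparison of parotid with sublingual gland split the cluster. PRR27 and OPRPN were higher in parotid, as SMR3B was. PRR27 had a parotid mean of 145 ± 71.2 TPM and a sublingual mean of 26.8 ± 23.2 TPM (SD, n = 6), and was higher in 6 of 6 animals (log2 fold change 2.76, SE 0.73, limma adjusted p = 0.00508). OPRPN was low throughout, at 7.44 ± 8.57 and 0.635 ± 0.757 TPM (1.96, SE 0.50, adjusted p = 0.00393, 6 of 6 animals). MUC7, FDCSP, CSN2, CSN3 and ODAM were lower in parotid than in sublingual gland, the side on which SMR3A also lay. ODAM is counted here although it was tested only because of its sublingual libraries. Thus 2 of 7 were higher, against 0.893% of all genes, and 5 of 7 lower, against 40.6%, and the median log2 fold change was -2.57 over the 7 and -0.70 over all genes.

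MUC7, a short soluble mucin of saliva, was the most abundant of this second group, at 9738 ± 9938 TPM in sublingual gland, 2877 ± 2042 TPM in submandibular gland (SD, n = 6) and 52.9 to 128 TPM in parotid. Its difference between parotid and sublingual gland was -5.46 (SE 0.77, limma adjusted p = 1.53e-05), lower in 6 of 6 animals. MUC7 was also lower in parotid than in submandibular gland, in 5 of 6 animals (-4.22, SE 0.77, limma adjusted p = 0.00782). It was the 1 call in the cluster, where 0.133% of all genes were higher in parotid and 0.214% lower. This call was lost without animal 1, 2, 3 or 6 (adjusted p = 0.0952, 0.0750, 0.131 and 0.101), in the fit to 12 libraries (0.230) and with quantile normalisation (0.0871). Few genes of any kind were called in most of these fits. Of all genes, 0.0153, 0, 0.0154 and 0.0379% were lower in parotid without animal 1, 2, 3 or 6. In the fit to 12 libraries 0% were lower, whereas with quantile normalisation 0.472% were. SMR3A was lower in parotid in 5 of 6 animals as well, and whether MUC7 and SMR3A differ in this respect was not tested. FDCSP stood at 251 ± 259 TPM in sublingual gland and 7.29 ± 3.31 TPM in parotid (-4.47, SE 0.51, limma adjusted p = 7.04e-07), with no overlap between the libraries of these glands. CSN3 stood at 604 ± 677 TPM in sublingual gland and 57.2 ± 44.7 TPM in parotid (-2.57, SE 0.83, limma adjusted p = 0.0171), and with trimmed-mean scaling the difference was -1.60 (adjusted p = 0.219). Without animal 1, 2, 3 or 5 its adjusted p was 0.0695, 0.0533, 0.102 or 0.112.

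Submandibular gland was set against sublingual gland in the same way. Against sublingual gland, PRR27 (log2 fold change 2.58, limma adjusted p = 0.0113) and OPRPN (1.57, adjusted p = 0.0227) were higher in submandibular gland, and FDCSP (-4.20, adjusted p = 4.67e-06), CSN3 (-3.07, adjusted p = 0.00865) and ODAM (-1.84, adjusted p = 0.00424) were lower, against 0.753 and 27.2% of all genes, where the ODAM difference was again favoured by its entry through the filter. The median was -1.24 over the 7 and -0.56 over all genes. MUC7 did not pass in this contrast (-1.24, SE 0.77, adjusted p = 0.227). The PRR27 call was lost without animal 1 or 2 (adjusted p = 0.120 and 0.0593), that of OPRPN without animal 1, 3, 5 or 6 (0.0981, 0.1, 0.0703 and 0.0833) and that of CSN3 without animal 3 (0.0730), while MUC7 passed without animal 4 (0.0157). Trimmed-mean scaling ended the calls of CSN3 and ODAM (0.0927 and 0.0676).

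**Figure D4:**
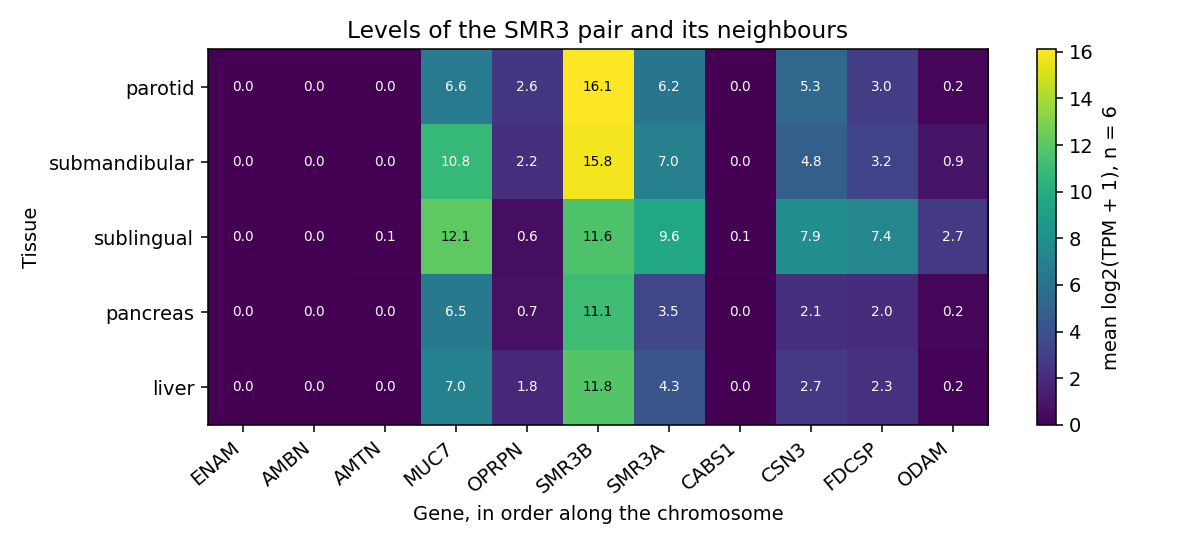
Mean log2(TPM + 1) over 6 libraries of SMR3B, SMR3A and their measured neighbours in order along the chromosome (columns) in each tissue (rows), with the value printed in each cell. SMR3B is highest in parotid and submandibular gland, SMR3A, MUC7, CSN3, FDCSP and ODAM in sublingual gland, and the enamel genes and CABS1 are near 0 in all 5 tissues.

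A second list named 7 salivary proline-rich protein genes outside the cluster, of which only PRR4, first known as a lacrimal protein, had a value under its listed name. PRR4 stood at 197, 23.9, 29.9, 39.4, 310.0 and 6.46 TPM in the parotid of animals 1 to 6. The values ran opposite to those of SMR3B in part, since animals 1 and 5 held the highest PRR4 and the lowest SMR3B of the parotid libraries. PRR4 was higher than in pancreas in parotid (log2 fold change 4.22, SE 0.67, limma adjusted p = 5.41e-05), submandibular gland (3.80, adjusted p = 0.000248) and sublingual gland (2.09, adjusted p = 0.0342). The last of these was lost without the animal block (adjusted p = 0.0798), with trimmed-mean scaling (0.122) and without animal 2, 3 or 5 (0.111, 0.128 and 0.187). It was higher in parotid than in sublingual gland in 6 of 6 animals (2.12, SE 0.67, limma adjusted p = 0.0144), and without animal 1 this call was lost as well (adjusted p = 0.130).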

How the data were processed

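The authors deposited 1 table of TPM values with 21292 gene names and 30 library columns, each summing to 999998 to 1000001. The submitters' processing notes name kallisto, and also HISAT2, featureCounts and DESeq2 with no role. Versions, transcriptome, build and the summing of transcripts to genes are not given in the sources used here. 0 per-sample columns were left unused.

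Members, gene lists and marker lists were chosen with earlier results of these data known. Genes named besides the pair are all measured members of the 2 lists, the 5 coding genes on each side of the pair, and the 5 genes most correlated with each member. RefSeq (T2T-MMU8v2.0) held 19177 of the symbols (90.1%). No sequences were used here.

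The 13550 genes that reached 1 TPM in 6 or more libraries were fitted on log2(TPM + 1) with limma 3.58.1 in R 4.3.3, with tissue and animal as terms and a variance trend over all 30 libraries. P-values were two-sided with Benjamini-Hochberg adjustment over all genes and a threshold of 0.05. Fold changes on this scale understate those of low genes. Animal was a block because the same animals gave all tissues. Deviations from tissue means correlated at 0.161 on average within animals and -0.0186 between animals. The highest correlation between libraries was 0.979 and 0 pairs were identical. The fit was tested on simulated log2 values, raised well above the low range, with no animal effect and no fixed total. That test does not cover low values, the pairing or the push of dominant transcripts on all others. The planned tests of the pair (limma) and of its ratio (exact sign-flip permutation) between parotid and submandibular gland and between pancreas and liver were run, but only differences are given, since these libraries also served the choice of the genes. Sexes were compared by exact permutation.

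Alternatives were no animal block, only the 12 libraries of a comparison, trimmed-mean scaling (30% of ratios and 5% of levels trimmed at each end), quantile normalisation, no filter, at least 5 TPM, a pseudocount of 0.1, no trend, scaling to genes outside the top 100, and leaving out each animal. Leaving out the 3 libraries that stood apart, and counts against sublingual gland under any alternative, were chosen after seeing the data.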

Additional observations from a re-analysis of the deposited data

Results flagged for a closer look

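Each set of 6 libraries of a tissue was searched for a library whose gap to its nearest neighbour was too large a part of the whole range by Dixon's test. This was done for SMR3A, SMR3B and their log2 ratio in 5 tissues, 15 sets in which chance gives about 0.75. It picked out 2 sets, both through the submandibular library of animal 4. SMR3B stood there at 9.84 on the log2(TPM + 1) scale, with the next library at 16.66. The log2 ratio of SMR3A to SMR3B stood at -4.74, with the next at -8.40. The ratio is built from SMR3A and SMR3B, so the 15 sets are not independent. Both flags share the low SMR3B value of that library, and SMR3A itself was not flagged. In 20 comparisons of tissue pairs, 0 had all females moving one way and all males the other.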

How the results depend on the processing

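Of 286 recalculations of 22 results, 257 kept direction and call, or stayed within the spread or 1.5 times the count. The spread was 1 SD of the within-animal differences, 1.07 to 2.67 on the log2 scale, which is a wide bound. The ratio differences could not gain a call without 1 animal, since the smallest exact sign-flip permutation p is then 0.0625. Without the animal block (the pairing by replicate number), the count of listed proline-rich genes higher in sublingual gland than pancreas went from 1 to 0, and CSN3 lost its call in submandibular gland against pancreas (limma adjusted p = 0.0531). No other count named here moved by over 1.5 times. That sublingual count was also 0 with trimmed-mean scaling, with quantile normalisation and with no filter, and 0 to 1 when leaving out an animal. SMR3B in parotid against submandibular gland changed sign, to -0.78, without the 3 libraries that stood apart, and ran from -0.95 to 0.82 when leaving out an animal. The ratio difference between pancreas and liver ran from -0.36 to 0.39, where the positive value came without animal 2.

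Leaving out an animal gave 2 to 5 cluster genes higher in submandibular gland than pancreas (from 4, with 2 without animal 1, 2, 3 or 5). It gave 3 to 5 lower in parotid than sublingual gland (from 5, with 3 without animal 1, 2, 3 or 5), and quantile normalisation gave 3. The shares of all genes called moved as well. The first went from 2.25% to between 1.46 and 1.59% without animal 1, 2, 3 or 5, and to 4.1% without animal 4. The second went from 40.6% to between 20.9 and 26.8% without animal 1, 2, 3 or 5, and to 8.43% with quantile normalisation. Of cluster genes higher in submandibular than sublingual gland (2), leaving out an animal left 0 to 2, with 0 without animal 1 and 1 without animal 2, 3, 5 or 6. The fit to 12 libraries left 1. Of those lower there (3), leaving out an animal left 1 to 5, with 1 without animal 3 and 5 without animal 4, and trimmed-mean scaling and quantile normalisation each left 1. Of all genes, 0.753% were higher in the main fit, 0.383 to 0.741% without animal 1, 2, 3, 5 or 6, and 0.303% in the fit to 12 libraries. Lower were 27.2% in the main fit, 11.8% without animal 3 and 65.8% without animal 4. With trimmed-mean scaling and quantile normalisation 8.43 and 7.61% were lower. ODAM fell below the filter when any animal but animal 4 was left out, so 1 gene fewer was tested there, which is part of the drop in the counts lower than sublingual gland. The cause of the other changes was not tested.

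Trimmed-mean scaling moved the all-gene median (log2 fold change) from -0.48 to -0.03 in parotid and from -0.33 to 0 in submandibular gland against pancreas, and from -0.70 to -0.03 and from -0.56 to 0 in these glands against sublingual gland. The shares called higher became 7.33, 7.87, 6.70 and 6.42%, and those called lower 9.39, 8.15, 10.8 and 8.43%. In sublingual gland against pancreas they became 11 and 10.6%, and in pancreas against liver 16.0 and 20.9%. Depth is unknown and limits no value by a stated floor.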

Other observations

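SMR3A in pancreas and liver followed no fixed share of the same animal's sublingual level. The pancreas value was 8.10, 0.240, 0.362, 18.1, 0.536 and 0.344% of the sublingual value in animals 1 to 6, and the liver value 13.6, 3.46, 0.360, 29.7, 0.636 and 0.567%. The high percentages were those of animals 1 and 4, whose sublingual libraries held the least SMR3A. In animals 3, 5 and 6, where sublingual SMR3A was highest, they lay between 0.344 and 0.636%.

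For SMR3B, the pancreas value was 1.31 to 10.4% of the parotid value of the same animal and the liver value 1.41 to 12.7%. Here the high percentages were those of animals 1 and 5, whose parotid libraries held the least SMR3B.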
